A study of Homo sapiens with 6 samples.

Results

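The interleukin-6 family, its receptors and the feedback arm of STAT3 were followed through 10 listed genes. These are the ligands IL6, IL11, LIF and CLCF1, the receptors IL6R, IL6ST, LIFR and OSMR, the transcription factor STAT3 and its inhibitor SOCS3. Members were all probe sets that the platform annotation assigns to exactly 1 of these symbols, a step that used no measured value. The genes themselves were listed with earlier results of these data known, so the member counts below are descriptions. That gave 35 of 49293 probe sets, for 9 of the 10 genes. CLCF1 was not analysed here. In the comparison by gene, where the brightest probe set stands for its gene, the members are 9 of 18265 genes.

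Cytokines of this family signal through the shared receptor chain gp130, which IL6ST encodes. IL-6 and IL-11 first bind a receptor of their own, and LIF and oncostatin M recruit the LIFR or OSMR chain beside gp130. The bound receptors activate Janus kinases (JAKs), which phosphorylate STAT3, and STAT3 induces among others SOCS3, an inhibitor that shuts the receptor off again. In the lung epithelium and its tumours IL6 and LIF are known as products of inflammatory signalling and as autocrine factors.

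All 6 arrays measured A549 cells, an established line from a human lung adenocarcinoma, grown in serum-containing medium and given a lentivirus that expresses a short hairpin RNA (shRNA). The 3 shControl arrays carried a control hairpin and the 3 shTIGD1 arrays a hairpin against TIGD1, a gene derived from a DNA transposase. The groups thus share the vector and differ in the hairpin, each group stands on 1 hairpin sequence in 1 line, and no time after transduction is given. The hairpin sequences, which define the comparison, are given in the labels as follows.
shTIGD1: ctgctaacacaacatccat
shControl: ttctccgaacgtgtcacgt
The labels name no separate cultures for the replicates. The p-values therefore refer to the spread among these 6 samples alone, and that spread may be technical.

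Promoters of 3 member genes whose signals differed are shown because they hold the motifs searched for, an NF-kB site for IL6, an AP-1 site for IL11 and a STAT site for LIFR. Each is the stretch of 250 bases before the start of transcription in RefSeq (GRCh38.p14), 5′ to 3′ on the strand of the gene, and capitals mark the match. The IL6 window is chr7:22726950-22727199 on the plus strand, the IL11 window chr19:55370464-55370713 on the minus strand, and the LIFR window, 1 of 3 listed for that gene, chr5:38595406-38595655 on the minus strand.
IL6: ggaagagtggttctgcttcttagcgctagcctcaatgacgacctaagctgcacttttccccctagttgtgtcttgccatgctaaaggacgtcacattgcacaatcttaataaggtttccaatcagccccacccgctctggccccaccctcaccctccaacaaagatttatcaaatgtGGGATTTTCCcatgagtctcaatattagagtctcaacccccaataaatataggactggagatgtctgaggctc
IL11: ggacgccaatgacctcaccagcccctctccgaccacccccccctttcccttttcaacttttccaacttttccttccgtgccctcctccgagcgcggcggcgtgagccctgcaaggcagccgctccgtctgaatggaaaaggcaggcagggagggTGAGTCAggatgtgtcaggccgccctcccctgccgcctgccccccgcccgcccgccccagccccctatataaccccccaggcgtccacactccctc
LIFR: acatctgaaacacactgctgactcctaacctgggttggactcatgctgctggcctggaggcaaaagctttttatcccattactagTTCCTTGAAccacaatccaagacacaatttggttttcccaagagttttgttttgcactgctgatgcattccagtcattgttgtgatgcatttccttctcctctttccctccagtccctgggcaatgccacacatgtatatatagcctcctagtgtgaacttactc
The match lies 73 bases before the start in IL6, 96 in IL11 and 165 in LIFR. On either strand, the NF-kB consensus was found in 9.96% of all 35116 promoter windows of this length, the AP-1 motif TGANTCA in 6.57% and the STAT motif TTCNNNGAA in 6.57%. Among the 11 windows listed for 8 of the member genes, the NF-kB consensus was in 2 (IL6 and IL6ST), AP-1 in 1 (IL11) and the STAT motif in 2 (both LIFR). These matches describe letters and show no binding.

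TIGD1, the targeted gene, did not pass as lower. Its probe set read 6.96, 6.93 and 6.85 with shControl against 6.88, 6.84 and 6.86 with shTIGD1, a log2 difference of -0.06 (SE 0.04, limma adjusted p = 0.389). The groups overlapped, and every direction below is therefore that of the arrays labelled shTIGD1 against those labelled shControl. Of all genes, 23.8% passed a limma adjusted p of 0.05, 9.79% as higher and 14% as lower. Levelling the arrays on spiked hybridization controls adds 0.21 to every log2 difference and levelling on poly-A controls adds 0.33, so smaller falls turn into rises under these scalings. TIGD1 itself then stood at 0.15 (adjusted p = 0.0388) and 0.28 (adjusted p = 0.00227). Background probe sets, which match no transcript and are sorted by their number of G and C bases, read 2.57 with 4 such bases, 3.27 with 14, 5.79 with 20 and 10.91 with 25. All 11 with at least 15 such bases were lower on the shTIGD1 arrays without overlap, by differences from -0.23 to -0.06. The part of this shift in the results was not tested, and the base content of the members' probes was not used here.

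Among the members, the ligand transcripts IL6 and LIF fell, IL11 rose, the receptor LIFR was higher in 2 of 5 probe sets of background-range signal, and a single probe set of OSMR fell. IL6ST rose in 4 of its 8 probe sets, the dimmest of them of background-range signal, and IL6R was higher in 1 of 4. By gene, 3 of 9 members passed as lower (14% of all genes) and 2 as higher (9.79%). The groups did not overlap for 7, 3 higher and 4 lower, against 42.3% of all genes (16.9% higher and 25.5% lower). By probe set, 13 of 35 passed (22% of all probe sets), 5 of them lower (10.6%) and 8 higher (11.5%). The calls were thus spread over both directions. Groups did not overlap for 23 of the 35 (40.9% of all probe sets), 15 higher (19.4%) and 8 lower (21.5%). The median log2 difference was 0.06 over the 35 and -0.02 over all probe sets. Of the 13 calls, 6 were made whichever array was left out, namely the brightest probe sets of IL6 and LIFR, the 2 brighter ones of LIF and the second and sixth in brightness of IL6ST.

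**Figure D1:**
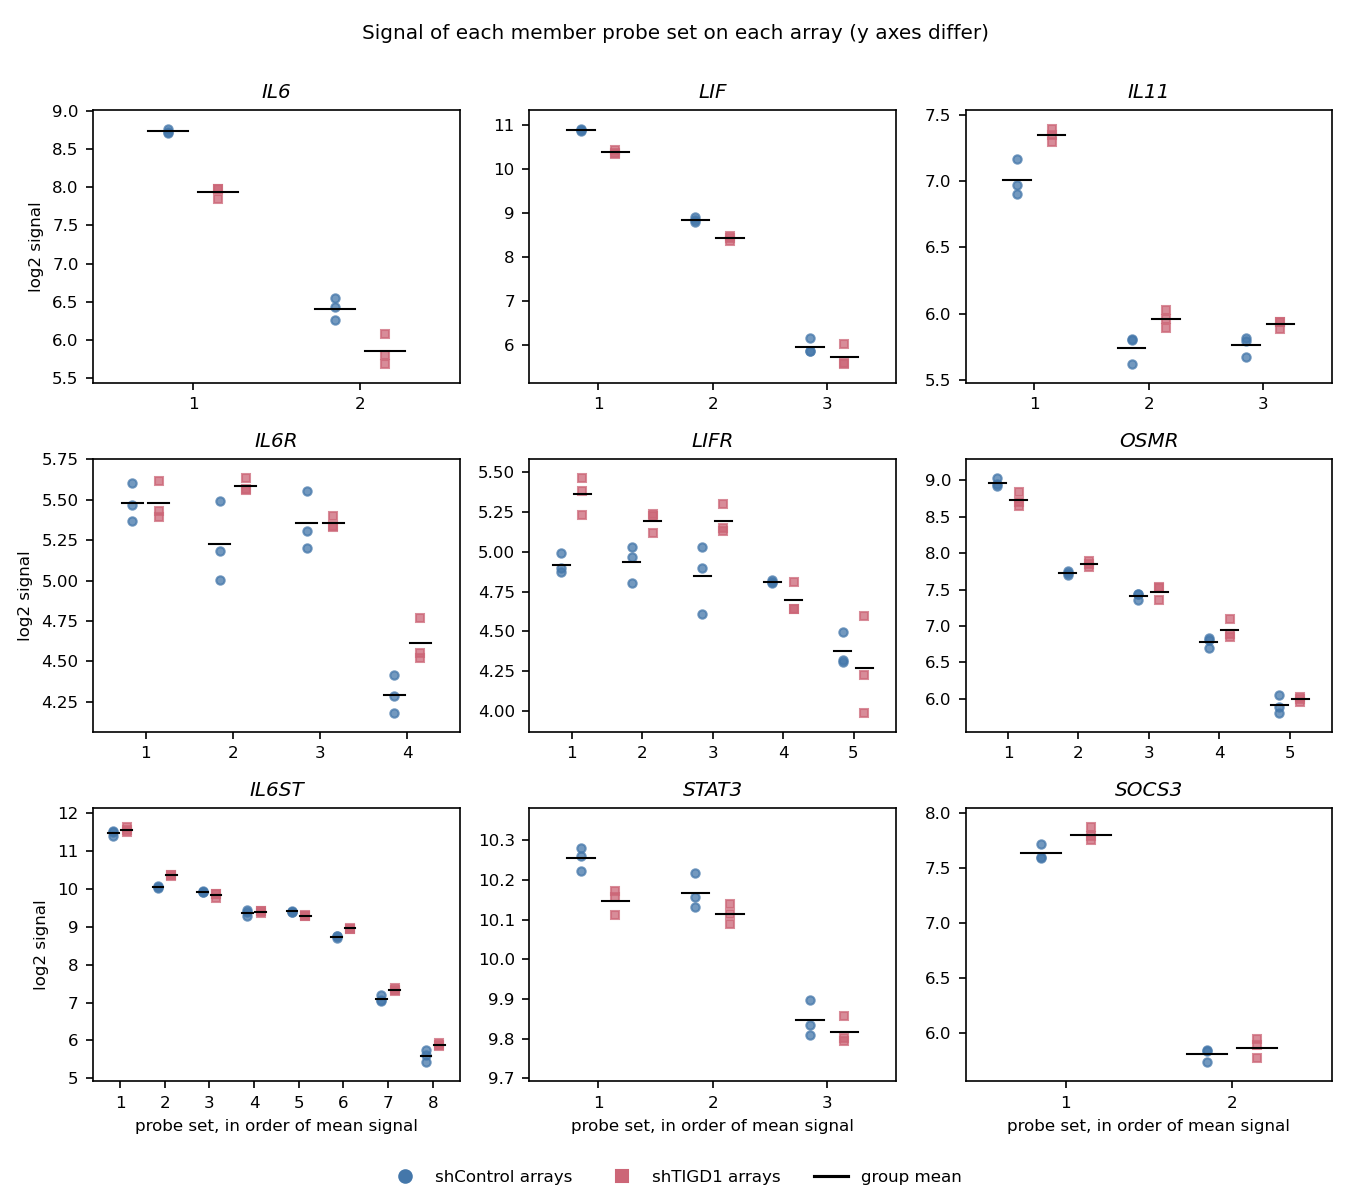
Log2 signal (y axis, scaled separately for each gene) of every member probe set on the 3 shControl arrays (circles) and the 3 shTIGD1 arrays (squares), with the group means as lines; on the x axis the probe sets of a gene are in order of mean signal. The squares lie below the circles for both IL6 probe sets and for the 2 brighter LIF probe sets, and above them for all 3 of IL11.

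IL6, the ligand that gives the family its name, had the largest difference of the members in the deposited values. By the brightest probe set of each gene, LIFR (0.65) exceeded it on hybridization controls, and LIFR (0.77), IL11 (0.67) and SOCS3 (0.50) did on poly-A controls. On poly-A controls dimmer member probe sets did too, such as the second of IL6R (0.69) and the third of LIFR (0.68). The brighter IL6 probe set (11746463_a_at) read 8.72, 8.77 and 8.72 with shControl against 7.85, 7.98 and 7.98 with shTIGD1. All shTIGD1 values lay below all shControl values. From a mean of 8.74 ± 0.03 to one of 7.94 ± 0.07 (SD, n = 3 in either group), it fell by 0.80 on the log2 scale or 1.74-fold (95% interval -0.92 to -0.68, limma adjusted p = 0.000338). The dimmer probe set read 6.43, 6.54 and 6.26 against 5.69, 5.80 and 6.08, again without overlap. It fell by 0.56 (SE 0.12, adjusted p = 0.0177), and the third shTIGD1 array stood closest to the controls. That second call ended without shControl replicate 1 (adjusted p = 0.0563), shTIGD1 replicate 1 (0.0527) or shTIGD1 replicate 2 (0.0643). It also ended with the replicate block (adjusted p = 0.0564) and with poly-A control scaling (-0.22, adjusted p = 0.0515). The call of the brighter probe set kept an adjusted p of at most 0.00338 whichever array was left out. Under the control scalings the brighter one stood at -0.59 and -0.47, with adjusted p of 0.000350 and 0.000416 by gene.

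LIF, which acts through LIFR and gp130 and sustains STAT3 activity in stem cells and tumours, fell as well. Its brightest probe set (11758619_s_at) read 10.91, 10.87 and 10.85 with shControl against 10.43, 10.36 and 10.34 with shTIGD1. The next one read 8.79, 8.89 and 8.83 against 8.41, 8.36 and 8.48. In both, the groups stood apart by more than the spread within either. The falls were 0.50 (SE 0.04, 1.41-fold, adjusted p = 0.000983) and 0.42 (SE 0.05, 1.34-fold, adjusted p = 0.00235). The dimmest probe set, at 5.85, 6.16 and 5.86 against 6.02, 5.58 and 5.56, overlapped between the groups (-0.23, SE 0.14, adjusted p = 0.298). The brightest stood at -0.29 (adjusted p = 0.00263 by gene) with hybridization control scaling and at -0.17 (0.0328) with poly-A control scaling. With the latter the second probe set stood at -0.086 and no longer passed (adjusted p = 0.178).

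IL11, a ligand that pairs IL11RA with gp130, went the other way. Its brightest probe set (11727690_at) read 6.90, 7.16 and 6.97 with shControl against 7.35, 7.39 and 7.29 with shTIGD1. It rose by 0.33 (SE 0.07, 1.26-fold, limma adjusted p = 0.0211), with no overlap. The remaining 2 read 5.81, 5.62 and 5.80 against 6.02, 5.96 and 5.89, and 5.82, 5.67 and 5.79 against 5.94, 5.88 and 5.94. They also stood higher on every shTIGD1 array, by 0.21 and 0.16, without passing in the main fit (adjusted p = 0.0619 and 0.0659). Both passed among probe sets with a mean of at least 5 (0.0319 and 0.0311). They also passed on hybridization controls (0.00303 and 0.00193) and on poly-A controls (0.00102 and 0.000610). On these controls the brightest stood at 0.54 and 0.67 (adjusted p = 0.00142 and 0.000256 by gene). The call on the brightest ended without shControl replicate 1 (adjusted p = 0.0571), shControl replicate 3 (0.0652), shTIGD1 replicate 1 (0.0645) or shTIGD1 replicate 2 (0.0720).

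IL6R, the receptor chain that binds IL-6, had 4 probe sets, 1 of which passed as higher. Their mean passed as higher too (0.17, adjusted p = 0.0263). Its brightest probe set read 5.60, 5.37 and 5.47 with shControl against 5.43, 5.61 and 5.39 with shTIGD1, a difference of 0.00 (95% interval -0.20 to 0.19, adjusted p = 0.992). The third in brightness was as level (0.00, interval -0.21 to 0.22). The second read 5.19, 5.49 and 5.00 against 5.56, 5.63 and 5.57 and missed the threshold (0.36, adjusted p = 0.0728). The dimmest, at 4.29, 4.18 and 4.41 against 4.55, 4.52 and 4.77, passed as higher (0.32, SE 0.09, adjusted p = 0.0405). All 4 lay in the range of the background probe sets with up to 20 G and C bases, and the probe sets of IL6R disagreed at that level. The call of the dimmest was lost when any array but shControl replicate 3 was left out, with an adjusted p of up to 0.101 (without shControl replicate 1). The second passed without shControl replicate 2 (adjusted p = 0.00996).

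LIFR, the receptor chain for LIF, was read by 5 probe sets that all lay in that same background range. The brightest (11722685_s_at) read 4.99, 4.87 and 4.90 with shControl against 5.38, 5.46 and 5.23 with shTIGD1. Its signal was higher by 0.44 (SE 0.07, adjusted p = 0.00615), and no array of a group reached the other group. The next, at 4.81, 4.97 and 5.03 against 5.12, 5.22 and 5.24, was higher by 0.26 (SE 0.07, adjusted p = 0.0399). That call ended without any single array other than shControl replicate 3, with an adjusted p of up to 0.116. The third stood apart without passing (0.35, adjusted p = 0.0668), and passed without shControl replicate 2 (0.0366). The 2 dimmest had differences of -0.12 and -0.11 (adjusted p = 0.193 and 0.663). The mean of the 5 probe sets stood at 0.16 (adjusted p = 0.0311), against 0.44 for the brightest. Since LIFR and IL6R signals are in the background range, these differences are of signal and are not given as folds of the transcript.

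OSMR, the receptor chain for oncostatin M, had 5 probe sets, the brightest of which differed in direction from the other four. The brightest (11759644_at) read 9.03, 8.95 and 8.92 with shControl against 8.64, 8.70 and 8.84 with shTIGD1. It fell by 0.24 (SE 0.06, adjusted p = 0.0390). The remaining 4 had differences of 0.13, 0.06, 0.16 and 0.08, none past the threshold in the main fit. Of these, the second read 7.73, 7.76 and 7.70 against 7.89, 7.81 and 7.86, which is higher on every shTIGD1 array (adjusted p = 0.0736). It passed among probe sets with a mean of at least 5 (0.0313). All 4 passed as higher on hybridization controls (adjusted p = 0.00118, 0.00907, 0.00670 and 0.0119). They also did on poly-A controls (0.000263, 0.000779, 0.000345 and 0.000651). The brightest passed on neither (-0.029 and 0.096, adjusted p = 0.729 and 0.198). The fall of the brightest did not pass without shControl replicate 1 (adjusted p = 0.110), shControl replicate 2 (0.0755), shControl replicate 3 (0.0683), shTIGD1 replicate 1 (0.112) or shTIGD1 replicate 2 (0.109). Nor did it pass with the replicate block (0.0983). The mean of the OSMR probe sets stood at 0.038 (adjusted p = 0.603), and no direction is given for OSMR as a gene.

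IL6ST, which encodes the gp130 chain shared by the whole family, had 8 probe sets, 4 of which rose and none of which passed as lower in the deposited values. The brightest read 11.38, 11.52 and 11.51 with shControl against 11.57, 11.63 and 11.50 with shTIGD1, with overlap (0.09, adjusted p = 0.286). The second (11759038_at) read 10.08, 10.05 and 10.04 against 10.37, 10.35 and 10.38. It rose by 0.31 (SE 0.04, 1.24-fold, adjusted p = 0.00253). The sixth read 8.74, 8.71 and 8.77 against 8.95, 8.97 and 8.95 and rose by 0.22 (SE 0.04, adjusted p = 0.00857). In these 2 the gap between the groups exceeded the spread within them. The eighth had a mean signal of 5.74, in the background range given for IL6R. The seventh and eighth were higher by 0.25 and 0.30 (adjusted p = 0.0190 and 0.0401). Without shControl replicate 1, shControl replicate 3, shTIGD1 replicate 1 or shTIGD1 replicate 2 neither of these passed, nor did the eighth without shTIGD1 replicate 3, with adjusted p of up to 0.0640 for the seventh and 0.114 for the eighth. The eighth also missed the threshold with the replicate block (0.0503). The third and the fifth stood lower on every shTIGD1 array without passing, at -0.10 and -0.11 (adjusted p = 0.189 and 0.0680). With trend and robust settings both passed as lower (0.0449 and 0.0121), and the fifth also did after repeated quantile normalization (0.0492) and among probe sets with a mean of at least 5 (0.0252). On hybridization and poly-A controls the third turned to 0.11 and 0.23 and the fifth to 0.094 and 0.22. The brightest passed as higher on both (0.30 and 0.43, adjusted p = 0.00450 and 0.00147). In the deposited values the mean of the 8 probe sets passed as higher (0.12, adjusted p = 0.0360). The difference between the IL6ST probe sets was not tested.

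STAT3, the transcription factor that the receptors activate, did not pass with any of its 3 probe sets in the main fit. The brightest read 10.26, 10.28 and 10.22 with shControl against 10.16, 10.17 and 10.11 with shTIGD1, apart in every array but small (-0.11, 95% interval -0.20 to -0.01, adjusted p = 0.0984). The remaining 2 overlapped, with intervals from -0.15 to 0.04 and from -0.13 to 0.07. The brightest passed as lower with eBayes trend and robust settings (adjusted p = 0.00971) and among probe sets with a mean of at least 5 (0.0428). Under the control scalings it turned to 0.10 and 0.23. On poly-A controls all 3 probe sets passed as higher (adjusted p = 0.00939, 0.00590 and 0.00272 from the brightest on). On hybridization controls the 2 dimmer ones did (0.0210 and 0.0227) and the brightest did not (0.107). These are levels of the transcript, and the phosphorylation through which STAT3 acts is not measured by an array.

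SOCS3, the feedback inhibitor that STAT3 induces, stood higher without passing. Its brighter probe set read 7.60, 7.72 and 7.59 with shControl against 7.79, 7.87 and 7.75 with shTIGD1. No shTIGD1 value was as low as any shControl value, and the difference was 0.17 (95% interval 0.04 to 0.30, adjusted p = 0.0741). It passed without shControl replicate 2 (adjusted p = 0.0486), among probe sets with a mean of at least 5 (0.0370) and with trend and robust settings (0.0262). The dimmer probe set overlapped between the groups (0.06, interval -0.08 to 0.20). Control scaling adds 0.21 or 0.33 to every difference, and both probe sets then passed as higher. On hybridization controls they stood at 0.37 and 0.27 (adjusted p = 0.00236 and 0.0126). On poly-A controls they stood at 0.50 and 0.39 (adjusted p = 0.000401 and 0.00350).

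**Figure D2:**
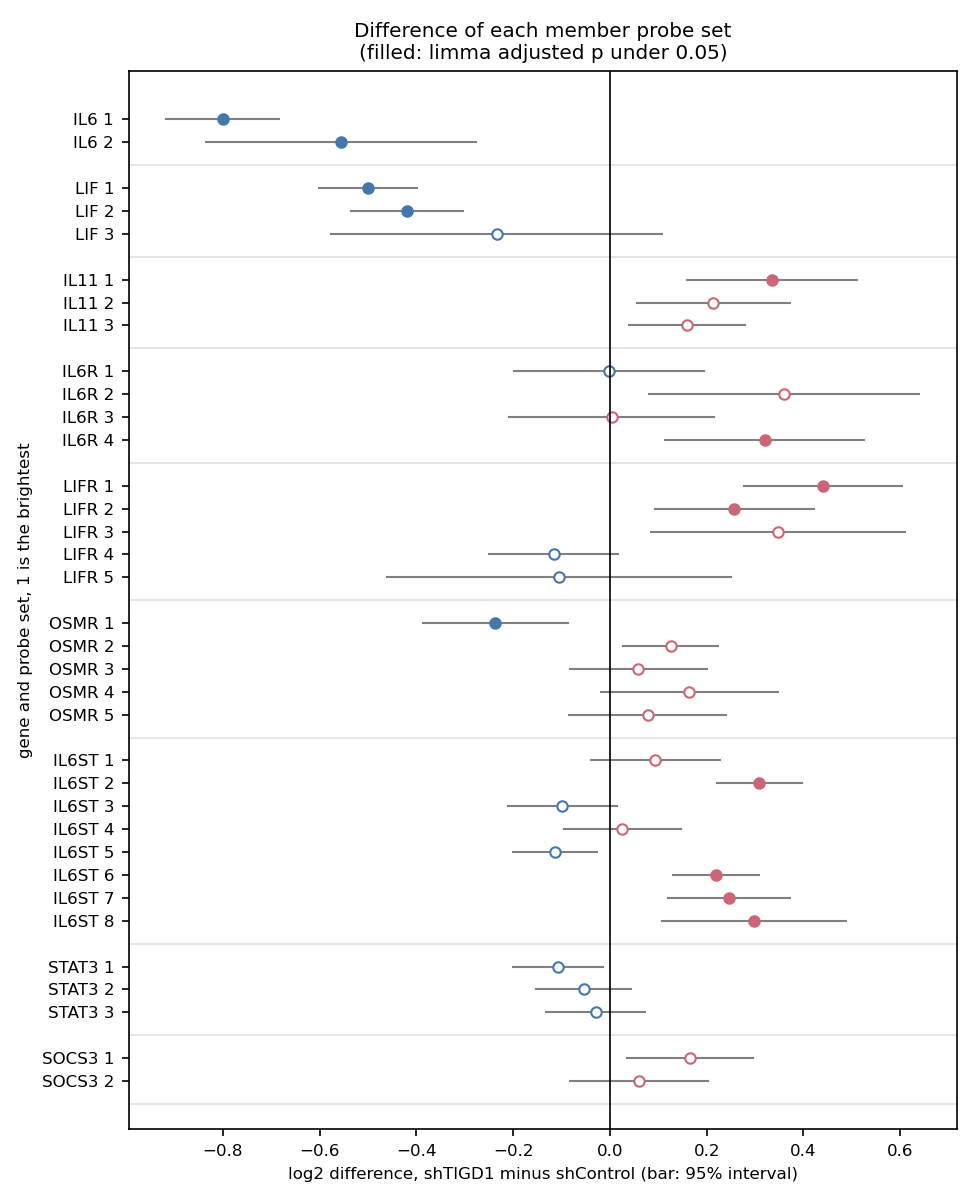
Log2 difference between the group means (x axis, shTIGD1 minus shControl) with its 95% interval for each of the 35 member probe sets (y axis, numbered within a gene from the brightest); filled points passed a limma adjusted p of 0.05. IL6 and LIF lie to the left, IL11 to the right, and the points of IL6ST, LIFR and OSMR fall on both sides of 0.

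The rest of the pathway was read from 81 other genes, listed by role, of which 77 were measured. Of these, 28 passed as lower and 10 as higher, with a median log2 difference of -0.10 against -0.04 over all genes. The background shares are 14% and 9.79%. The split depended on scaling, with 6 lower and 36 higher on hybridization controls and 3 and 47 on poly-A controls. Because the lists were drawn up with earlier results of these data known, the counts are descriptions.

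Among the other ligands, EBI3, a subunit of interleukin-27 and related cytokines that also signal through gp130, fell with IL6 and LIF. It read 7.12, 7.17 and 6.91 with shControl against 6.29, 6.48 and 6.14 with shTIGD1. It fell by 0.76 (SE 0.10, 1.70-fold, limma adjusted p = 0.00433), without overlap, and the call held whichever array was left out. The remaining 4 measured ligands did not pass, OSM at -0.11, IL27 at -0.11, CTF1 at 0.00 and IL31 at 0.10. Of 4 receptors, only CNTFR passed, at -0.31 (SE 0.09, adjusted p = 0.0484) and a background-range mean signal of 5.68. That call was lost whichever array was left out (adjusted p from 0.0641 to 0.132).

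JAKs and STATs other than STAT3 had 4 of 8 measured members lower and 1 higher (median -0.15). JAK1, the main kinase of gp130, read 11.41, 11.42 and 11.34 with shControl against 11.16, 11.08 and 11.17 with shTIGD1. It fell by 0.25 (SE 0.04, adjusted p = 0.00844). JAK3, a kinase of lymphocyte cytokine receptors, fell by 0.32 and STAT4 by 0.24, while JAK2 rose by 0.19 (adjusted p = 0.00621, 0.0155 and 0.00802). JAK2 had another probe set that passed as lower, and STAT4 missed the threshold without shTIGD1 replicate 3 (adjusted p = 0.0521). Under poly-A control scaling JAK1, JAK3 and STAT4 stood at 0.080, 0.014 and 0.090, so their direction is that of the values as deposited.

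Brakes on JAK and STAT signalling had 4 of 15 measured members lower and 1 higher (median -0.03). SOCS2, which restrains growth hormone signalling, fell by 0.23, the STAT inhibitor PIAS4 by 0.22 and the phosphatase gene PTPN2 by 0.21 (adjusted p = 0.0101, 0.0131 and 0.00764). PTPN11, which encodes the phosphatase SHP2 that docks to gp130, rose by 0.23 (adjusted p = 0.0177). Of 4 PTPN11 probe sets 1 passed, with differences from 0.025 to 0.23. The PTPN11 call ended without shControl replicate 1 (adjusted p = 0.0544), shControl replicate 3 (0.0563), shTIGD1 replicate 2 (0.0581) or shTIGD1 replicate 3 (0.0504). It also ended with the mean of the probe sets (0.11, adjusted p = 0.0824) and with the second brightest (0.10, adjusted p = 0.253). SOCS2, PIAS4 and PTPN2 turned to 0.10, 0.11 and 0.12 with poly-A control scaling, and SOCS2 and PTPN2 had a further probe set of opposite sign.

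The proteases that shed the IL-6 receptor split. ADAM17 read 10.56, 10.52 and 10.53 with shControl against 10.26, 10.28 and 10.22 with shTIGD1 and fell by 0.28 (SE 0.04, adjusted p = 0.00315). ADAM10 rose by 0.20 (SE 0.05, adjusted p = 0.0259). ADAM17 had 4 probe sets, 2 significantly lower and 1 significantly higher, and ADAM17 turned to 0.049 with poly-A control scaling. The ADAM10 call ended without any of the shControl arrays or without shTIGD1 replicate 1 (adjusted p = 0.0529 to 0.0767). It also ended with the replicate block (0.0560).

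Genes that set the stability of IL6 mRNA had 5 of 10 members lower and none higher (median -0.11). ZC3H12A encodes regnase-1, a nuclease that cleaves IL6 mRNA. It read 9.44, 9.41 and 9.45 with shControl against 8.87, 8.85 and 8.84 with shTIGD1, a fall by 0.58 (SE 0.03, 1.49-fold, adjusted p = 0.000314). RC3H2, a roquin that also destabilises cytokine mRNA, fell by 0.27, the decay factor KHSRP by 0.21 and the stabilising protein gene ELAVL1 by 0.18 (adjusted p = 0.00830, 0.00570 and 0.0180). ELAVL1 passed with 1 of 5 probe sets, whose differences ran from -0.18 to 0.088, and their mean stood at -0.047 (adjusted p = 0.341). ELAVL1 missed the threshold without shControl replicate 1 (adjusted p = 0.0583), shControl replicate 2 (0.0545), shTIGD1 replicate 1 (0.0661) or shTIGD1 replicate 3 (0.0571). It also missed it with the replicate block (0.0635) and with its second brightest probe set (0.0930). RC3H2, KHSRP and ELAVL1 turned to 0.065, 0.12 and 0.15 with poly-A control scaling, and ELAVL1 to 0.023 with hybridization control scaling.

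Known STAT3 target genes had 9 of 18 members lower and 2 higher (median -0.15). IRF1, an interferon-responsive transcription factor, fell by 0.55, the adhesion molecule gene ICAM1 by 0.53 and the cyclin gene CCND1 by 0.44 (adjusted p = 0.000645, 0.00396 and 0.000632). FOS, which is also an immediate early gene, read 12.18, 12.17 and 12.18 against 12.58, 12.54 and 12.60 and rose by 0.40 (SE 0.03, adjusted p = 0.000911). Many of these genes answer to other factors too, IRF1 and ICAM1 to NF-kB among them. With poly-A control scaling ICAM1 (-0.20, adjusted p = 0.0789) and CCND1 (-0.11, adjusted p = 0.112) no longer passed.

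Acute phase genes, whose products the liver secretes in answer to IL-6, went both ways, with 5 of 15 higher and 3 lower (median 0.00). Among those with a mean log2 signal of at least 5 the median was 0.43. The 3 fibrinogen chains and the fibrinogen-like FGL1 led the rises, and the median of 0.43 is the value of FGL1 itself. C3, SERPINA3 and HAMP, also above a mean of 5, stood at -0.28, -0.32 and -0.13 (limma adjusted p = 0.00351, 0.00639 and 0.498). SAA1, at a mean signal of 4.38, passed as lower too (-0.43, adjusted p = 0.00761). FGG read 9.51, 9.55 and 9.49 with shControl against 10.36, 10.25 and 10.30 with shTIGD1, and FGA read 11.19, 11.10 and 11.11 against 11.62, 11.64 and 11.66. FGB rose by 1.25, FGG by 0.79, FGA by 0.51 and FGL1 by 0.43 (limma adjusted p = 0.000101, 0.000268, 0.000723 and 0.000980). All 5 probe sets of FGA, 4 of FGB and 2 of FGG were past the threshold and higher, and the 4 genes stayed past the threshold whichever array was left out.

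**Figure D3:**
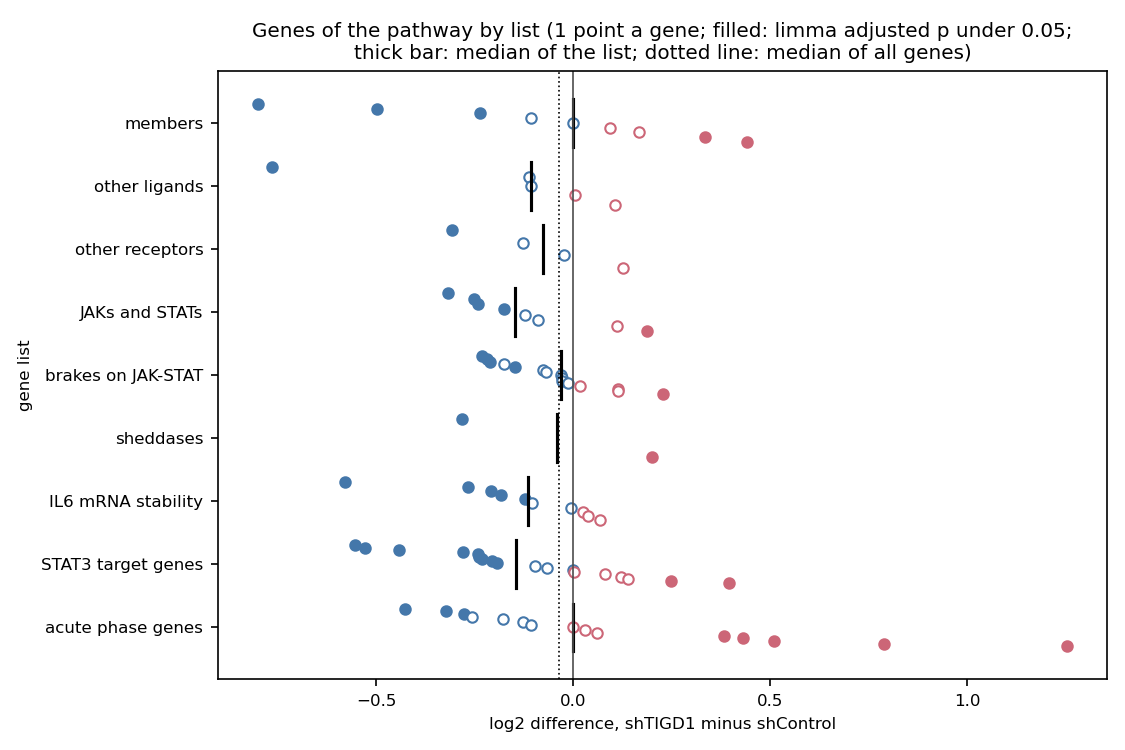
Log2 difference (x axis, shTIGD1 minus shControl) of each measured gene, with 1 point a gene, for the members and 8 lists of the pathway (y axis); filled points passed a limma adjusted p of 0.05, thick bars are list medians and the dotted line is the median of all genes, -0.04. The fibrinogen genes stand to the right among the acute phase genes, while IL6 and EBI3 are the points furthest to the left.

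The profiles most like those of IL6 and LIF were found by the distance between 6-array profiles, after each gene's shControl mean had been subtracted, among 10901 other genes whose brighter group reached a mean log2 signal of 6. Nearest to IL6 were TNFAIP3, a feedback inhibitor of NF-kB (Euclidean distance 0.085), the cytokine gene IL1A (0.13) and the apoptosis gene BBC3, also known as PUMA (0.15). Their log2 differences were -0.77, -0.82 and -0.74. Nearest to LIF were PLAU, the urokinase gene (0.058), the RNA helicase gene DDX55 (0.058) and TNFAIP2, a gene induced by tumour necrosis factor (0.072), at -0.48, -0.51 and -0.52. The likeness is over 6 arrays in 2 groups, and genes chosen this way had to be lower by about the same amount.

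Cells other than A549 can also make these cytokines, so their markers were read on the same arrays. The keratins of A549 cells were high in both groups, with KRT18 at 14.19 and 14.15 and KRT8 at 13.52 and 13.51. Of 8 epithelial markers CDH1 and EPCAM rose, by 0.66 and 0.87, and none fell. Of 14 measured immune markers 1 passed as lower, ITGAM at -0.19 (adjusted p = 0.0405), and none as higher. Their summed log2 signal was 69.8 to 71.6 on the shControl arrays and 69.9 to 70.5 on the shTIGD1 arrays. The brightest of the list were CD14 at 8.21 in both groups, CD68 at 7.36 and 7.40, and CD79A at 6.71 and 6.64, while PTPRC, the general leukocyte gene, read 3.22 and 3.05. The part of any such cells in the results was not tested. The 8 fibroblast markers summed to 34.6 to 35.3 and 34.3 to 34.7, with COL3A1 lower (-0.56, adjusted p = 0.00410), PDGFRB at 5.79 and 5.59, and DCN at 3.67 and 3.73. The 7 endothelial markers summed to 33.0 to 33.4 and 32.7 to 33.4, with ESAM higher (0.33, adjusted p = 0.0472). The ITGAM call was lost whichever array was left out (adjusted p from 0.0569 to 0.120). The ESAM call was lost without any array other than shControl replicate 3 (adjusted p = 0.0757 to 0.129). ITGAM, COL3A1 and ESAM had mean signals of 4.71, 5.60 and 5.30, in the background range given for IL6R. In such bulk RNA, fewer cells that make a transcript and less transcript per cell cannot be told apart.

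**Figure D4:**
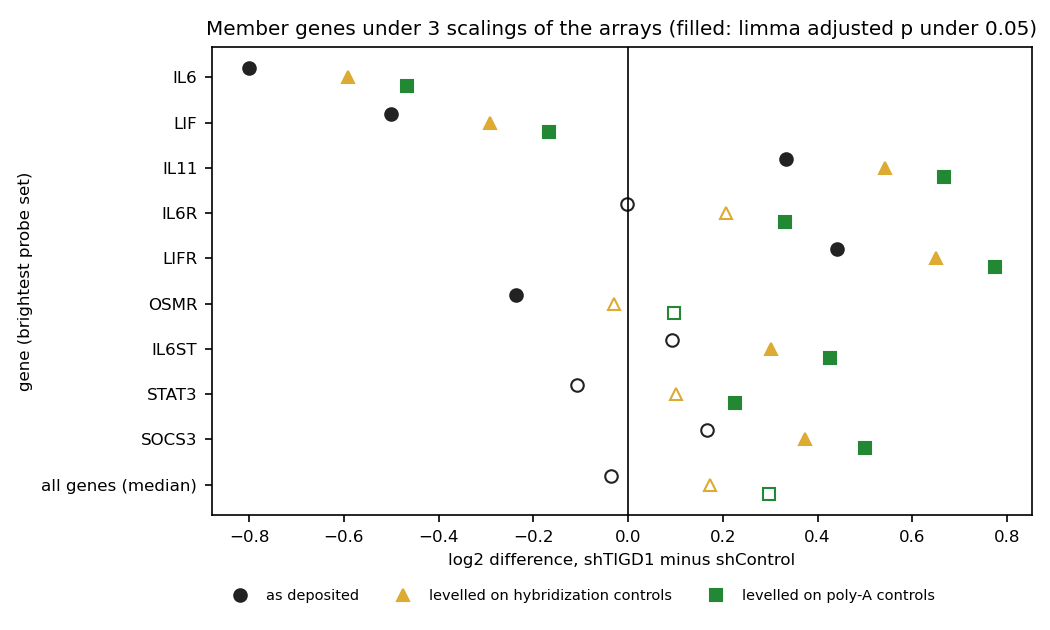
Log2 difference (x axis, shTIGD1 minus shControl) of the 9 member genes by their brightest probe set (y axis), and of the median of all genes, as deposited (circles) and with the arrays levelled on hybridization controls (triangles) or poly-A controls (squares); filled symbols passed a limma adjusted p of 0.05. IL6 and LIF stay below 0 and past the threshold under all 3, while STAT3 and IL6R turn from below to above 0 on both sets of controls and OSMR on the poly-A controls.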

How the data were processed

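Per the labels' protocols, RNA of 6 A549 samples was labelled with biotin and measured on Affymetrix arrays of 1 colour. What the authors deposited is 1 log2 signal for each probe set and array. The submitters' processing notes name GCOS and RMA without versions. The values' range is that of base 2 logarithms. RMA corrects background and makes the arrays' distributions alike, so a shift common to most transcripts would have been removed. Array medians lay between 6.27 and 6.28, and the number of arrays limits the precision.

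Of 49395 probe sets, 102 controls were left out, 45336 of the others had 1 gene symbol, 1275 several and 2682 none. The brightest probe set, by mean over all arrays, stood for a gene. The 3 shTIGD1 and 3 shControl arrays went into limma 3.58.1 (R 4.3.3; lmFit, eBayes, two-sided). Benjamini-Hochberg adjustment ran over 18265 genes for gene results and over all 49293 probe sets for member probe sets, at 0.05. Other steps used Python 3.11.15. Tested on simulated data for this comparison over 18265 genes, the fit recovered 44% of 50 genes changed 1.2-fold. It recovered 84% at 1.5-fold and 100% at 2-fold and at 3-fold, with 9 false calls of 173. Only 50 genes were changed at each fold, noise was independent, and recovery was counted without regard to sign. On the real arrays 23.8% of all genes passed, so these shares hold for the simulated setting only.

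The members and lists were chosen with earlier results of these data known. Named besides the members are TIGD1, the genes of each list that passed with the greatest change (up to 4), and the 3 nearest profiles of IL6 and of LIF. OSM, IL27, CTF1, IL31, C3, SERPINA3, HAMP, SAA1, KRT8, KRT18, CD14, CD68, CD79A, PTPRC, PDGFRB and DCN were chosen after their values were seen. Listed genes without a probe set of their own were not analysed here. Alternatives tried were other probe set rules, repeated quantile normalization, equal medians, scaling on 14 hybridization or 24 poly-A control probe sets, a filter at a mean of 5, trend and robust settings, array weights, a replicate block and leaving out each array.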

Additional observations from a re-analysis of the deposited data

How the results depend on the processing

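IL6, LIF and LIFR kept direction and side of the threshold by gene in all 16 alternatives, though LIFR moved from 0.44 to 0.16 with the mean of all probe sets and LIF stood at -0.29 and -0.17 under the control scalings. Over the alternatives, 107 of 144 values for member genes, 380 of 487 for member probe sets and 477 of 559 for other named genes kept both. For the calls that changed, the cause was not tested, except that the control scalings add 0.21 or 0.33 to every difference.

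On hybridization controls, 4 member genes and 22 member probe sets passed as higher, as did 36 genes of the lists, with 6 lower, and 8738 of all genes, with 361 lower. TIGD1 turned to 0.15, IL6R to 0.21, STAT3 to 0.10, ELAVL1 to 0.023 and ITGAM to 0.020. Among probe sets, those of STAT3 turned to 0.10, 0.15 and 0.18, the 2 dimmest of LIFR to 0.092 and 0.10, the brightest of IL6R to 0.21, and 2 of IL6ST to 0.11 and 0.094. On poly-A controls, 6 member genes, 28 member probe sets (2 lower), 47 genes of the lists (3 lower) and 13965 of all genes (119 lower) were higher. TIGD1 turned to 0.28, IL6R to 0.33, OSMR to 0.10 and STAT3 to 0.23. Among probe sets, those of STAT3 turned to 0.23, 0.28 and 0.30, 2 of LIFR to 0.22 and 0.23, 2 of IL6ST to 0.23 and 0.22, the brightest of IL6R to 0.33, that of OSMR to 0.10 and the dimmest of LIF to 0.10. The other genes that turned were CNTFR (0.024), JAK3 (0.014), JAK1 (0.080), STAT4 (0.090), SOCS2 (0.10), PIAS4 (0.11), PTPN2 (0.12), ADAM17 (0.049), RC3H2 (0.065), KHSRP (0.12), ELAVL1 (0.15) and ITGAM (0.14).

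With the mean of all probe sets, 4 member genes passed as higher, IL6R turned to 0.17 and passed (adjusted p = 0.0263), OSMR to 0.038 and JAK2 to -0.013. With the second brightest, IL6R turned to 0.36, OSMR to 0.13, SOCS2 to 0.076 and ESAM to -0.087. Repeated quantile normalization turned IL6R to 0.012. With a mean of at least 5, 13 member probe sets passed as higher, and with trend and robust settings 8 passed as lower.

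Same-numbered arrays did not deviate together (correlations -0.03, -0.13 and -0.09), and no pairing entered the main fit. Such correlations cannot show whether same-numbered samples were handled together. With the replicate block, 3 member probe sets passed as lower, and of all genes 1293 passed as lower and 1095 as higher.

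Leaving out each array gave 1 to 3 member genes higher and 2 to 3 lower, 3 to 9 member probe sets higher and 3 to 5 lower, and 1176 to 1474 of all genes higher and 1566 to 1915 lower. IL6R by its brightest probe set then ranged from -0.069 to 0.061, the third IL6R probe set from -0.072 to 0.10, the fourth of IL6ST from -0.017 to 0.060 and the dimmest of LIFR from -0.27 to 0.036.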
